A study of Mus musculus with 6 samples.

Results

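The genes described here are *Hnrnpa2b1* and its closest paralogs, the A/B and D subfamilies of the heterogeneous nuclear ribonucleoproteins (hnRNPs). The 7 members, *Hnrnpa2b1*, *Hnrnpa1*, *Hnrnpa3*, *Hnrnpa0*, *Hnrnpab*, *Hnrnpd* and *Hnrnpdl*, were taken by gene symbol from a table of 46078 genes, and all 7 passed the filter on low counts that left 14828 genes for testing. The study asked what the loss of *Hnrnpa2b1*, an RNA-binding protein that regulates splicing, does to differentiating muscle cells. RNA was sequenced from 3 knockout (KO) and 3 wild type (WT) libraries of C2C12 cells, an immortalized mouse myoblast line that fuses into myotubes when serum is withdrawn. Every library came from cells after 2 days of serum withdrawal with ITS supplement, and the genotype is the only difference that the labels give. The KO cells were made with CRISPR-Cas9, 1 guide against *Hnrnpa2b1* and puromycin selection. The methods describe 3 independent clones of KO and of WT cells, but not which clone gave which library, so p-values measure the spread between these 6 libraries. Libraries held between 33605258 and 40558740 reads counted on genes. The labels KO1 to KO3 and WT1 to WT3 follow the sample titles.

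HnRNPs bind nascent RNA in the nucleus and act in splicing, transport, stability and translation. *Hnrnpa2b1*, *Hnrnpa1*, *Hnrnpa3* and *Hnrnpa0* encode the A/B proteins, which carry a pair of RNA recognition motifs followed by a glycine-rich tail. *Hnrnpab*, *Hnrnpd* (also called AUF1) and *Hnrnpdl* encode related proteins, of which *Hnrnpd* is known for binding AU-rich elements and changing mRNA stability. Several hnRNP genes, among them *Hnrnpa2b1*, *Hnrnpd* and *Hnrnpdl*, are known to make alternatively spliced transcripts that nonsense-mediated decay removes.

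Since paralogs can share reads, their sequences were compared first. Over 90 bases of the coding sequence of *Hnrnpa2b1* (transcript Hnrnpa2b1-203, coding bases 328 to 417, counted from the start codon), chosen as the stretch most alike between all 7 genes, the most similar stretch without gaps is shown for 5 of the paralogs from the GENCODE M21 transcripts. It falls in the second RNA recognition motif. Capitals mark the bases that are the same as in *Hnrnpa2b1*.
Hnrnpa2b1: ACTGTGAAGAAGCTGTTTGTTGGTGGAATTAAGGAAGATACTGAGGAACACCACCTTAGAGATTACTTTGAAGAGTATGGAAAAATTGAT
Hnrnpa3: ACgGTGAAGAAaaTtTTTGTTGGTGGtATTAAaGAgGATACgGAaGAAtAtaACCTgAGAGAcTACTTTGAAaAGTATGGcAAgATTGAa
Hnrnpa0: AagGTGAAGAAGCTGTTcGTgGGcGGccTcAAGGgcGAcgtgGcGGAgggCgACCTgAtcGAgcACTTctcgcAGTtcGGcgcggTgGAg
Hnrnpab: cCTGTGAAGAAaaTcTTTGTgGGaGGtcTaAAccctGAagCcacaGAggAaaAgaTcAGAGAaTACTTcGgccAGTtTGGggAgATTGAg
Hnrnpd: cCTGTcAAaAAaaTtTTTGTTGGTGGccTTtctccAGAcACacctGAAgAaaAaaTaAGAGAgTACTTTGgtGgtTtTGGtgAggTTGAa
Hnrnpdl: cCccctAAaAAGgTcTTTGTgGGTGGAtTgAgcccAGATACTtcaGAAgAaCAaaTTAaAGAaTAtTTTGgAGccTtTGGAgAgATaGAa
The paralogs shown had from 52 (*Hnrnpa0*) to 72 (*Hnrnpa3*) of the 90 bases identical to *Hnrnpa2b1*. *Hnrnpa1*, which is not shown, had the most, with 74. In *Hnrnpa3* the differences were spread along the stretch. The longest exact run that the coding sequence of *Hnrnpa2b1* shared with any of the others was 18 bases, and *Hnrnpa1* and *Hnrnpa3* shared a run of 26 bases. No transcript of one member shared a run of 50 bases, or of the read length of 150 bases, with a transcript of another member.

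Copies elsewhere in the genome shared far more sequence than the paralogs did. Of the 150-base stretches in the transcripts of *Hnrnpa1*, 23.6% occurred exactly in another annotated gene, and 8 pseudogenes held them, the most in *Gm10052*. For *Hnrnpa3* the share was 24.5%, spread over 18 genes with *Gm5641* holding the most. In *Hnrnpab* 14.6% of the stretches were shared with the overlapping gene *Phykpl*, which had 434 to 810 counts per library, and in *Hnrnpd* 2.90% with the antisense gene *Gm17092*, which had 7 to 18 counts per library. Where strand is not used, reads of *Hnrnpd* and *Gm17092* cannot be told apart. *Hnrnpa2b1*, *Hnrnpa0* and *Hnrnpdl* shared none. In the counts, the pseudogenes that shared a run of at least 50 bases took few reads. As a ratio between separate genes, their summed counts came to at most 2.59% of the count of *Hnrnpa1* in any library (15 pseudogenes). For *Hnrnpa3* this ratio was at most 2.14% (33 pseudogenes). Some pseudogenes with such runs had no row in the counts and are not included. In TPM, the relative abundance that StringTie computes per transcript length, the same pseudogenes stood higher relative to the members. Their summed TPM came to at least 15.4% of the value of *Hnrnpa1* and to 6.61% to 19.8% of that of *Hnrnpa3*, again as ratios between separate genes. The values of *Hnrnpa1*, *Hnrnpa3*, *Hnrnpab* and *Hnrnpd* are uncertain as far as reads from shared stretches could be assigned to either gene.

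*Hnrnpa2b1* (ENSMUSG00000004980) is annotated on the minus strand of chromosome 6 from 51460434 to 51469894 on GRCm38, with 13 transcripts. Of these, 6 code for protein, 2 are marked for nonsense-mediated decay and 5 retain an intron. Its CPM (the gene's counts relative to the TMM-scaled library total) was 159, 195 and 249 for KO1 to KO3 against 225, 229 and 252 for WT1 to WT3. KO1 and KO2 lay below every WT library, while KO3 lay between WT2 and WT3, so the groups overlapped. The mean was 201 ± 45.0 CPM in KO and 235 ± 14.5 in WT (SD, n = 3 each). On the log2 scale the fold change was −0.23 (SE 0.18, 95% interval −0.64 to 0.19), with an adjusted p of 0.381 in edgeR's quasi-likelihood test over all 14828 genes, so a difference beyond the spread between libraries was not shown. It was −0.09 without KO1, −0.41 without KO3 and −0.10 with library totals alone in place of TMM, none of them past the threshold in edgeR. Counts over a whole gene do not show the edited site, and they are therefore no check of the genotype labels. The study checked the loss in its clones at the protein level, by immunofluorescence and Western blot, whereas the values here are RNA.

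**Figure D1:**
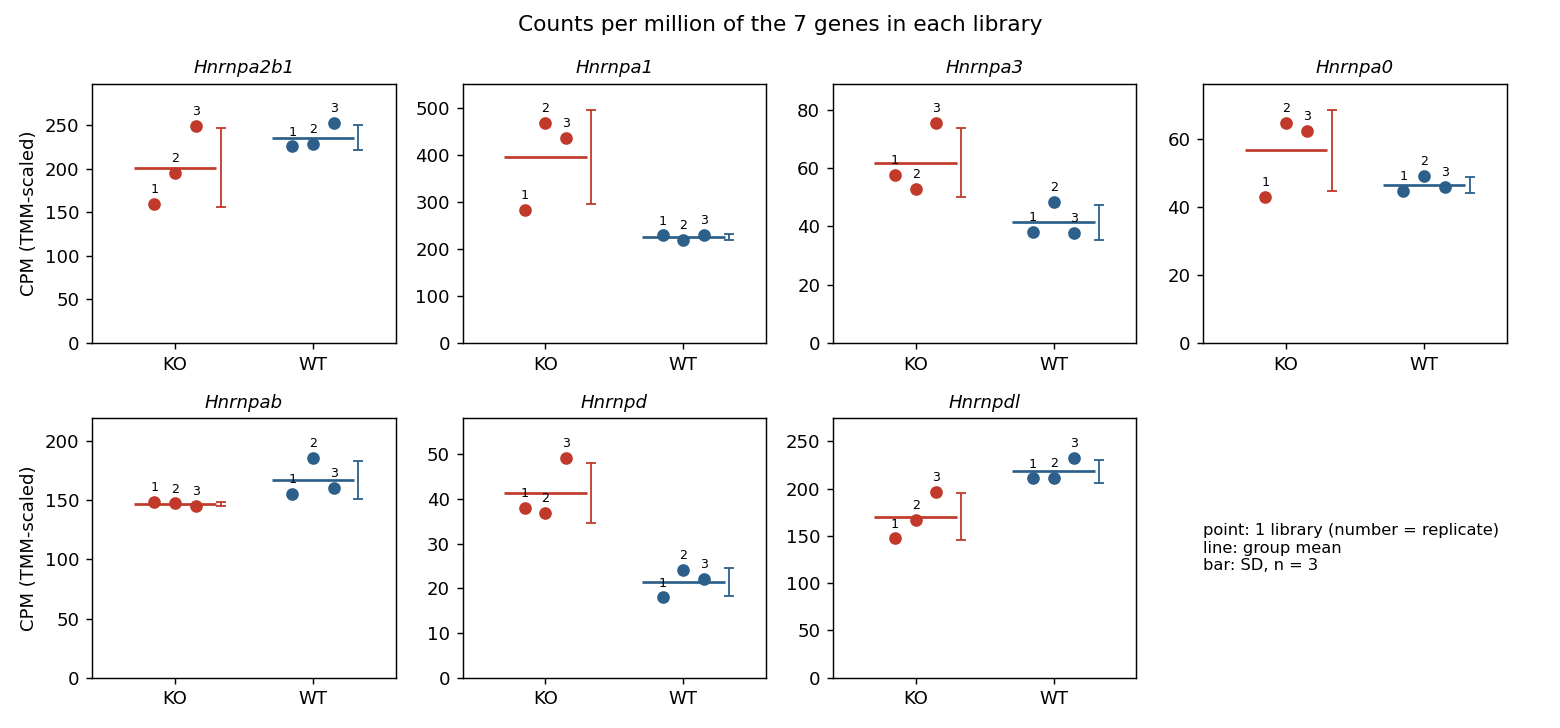
CPM of each gene (vertical axis, from 0, with its own scale in each panel) in the 3 KO and 3 WT libraries. Points are libraries, lines are group means and bars are SD (n = 3). *Hnrnpa1*, *Hnrnpa3* and *Hnrnpd* lie higher in every KO library than in any WT library, whereas the groups overlap for *Hnrnpa2b1* and *Hnrnpa0*.

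Among the 7 genes, 3 were differentially expressed in the counts and all 3 were higher in KO, against 22.7% of all tested genes called, 12.1% higher and 10.6% lower. None of the 7 was called lower by edgeR or by DESeq2, and 1, *Hnrnpdl*, was lower at an unadjusted p under 0.05. The libraries of the genotypes did not overlap for 5 of the 7 genes, as for 44.3% of all tested genes. The median log2 fold change of the 7 genes was 0.29, beside 0.03 over all genes. In RNA from whole cultures, a change in RNA per cell and a change in the share of cells that hold the RNA cannot be told apart. An exact permutation test of 3 libraries against 3 cannot give a two-sided p below 0.1, which all 5 genes without overlap reached.

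*Hnrnpa1* (ENSMUSG00000046434, chromosome 15, plus strand, 103240432 to 103244955) encodes a well studied relative of *Hnrnpa2b1*, with which it shares many splicing targets. It had 283, 468 and 438 CPM for KO1 to KO3 against 229, 219 and 231 CPM for WT1 to WT3. All KO libraries were above all WT libraries, and KO1 was the closest to them. The gene was 1.75-fold higher in KO, or by 0.81 on the log2 scale (SE 0.20), with an adjusted p of 0.0268 in edgeR that ran from 0.00158 to 0.107 over the alternatives. The direction was the same in every alternative, but the call was lost without KO2 (adjusted p = 0.0630), KO3 (0.0710), WT1 (0.107), WT2 (0.0823) or WT3 (0.0981) in edgeR.

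*Hnrnpa3* (ENSMUSG00000059005, chromosome 2, plus strand, 75659261 to 75669407) encodes an A/B protein that is known to bind mRNA trafficking elements as hnRNP A2 does. Its CPM was 57.6, 52.8 and 75.4 for KO1 to KO3 and 38.1, 48.4 and 37.6 for WT1 to WT3. The lowest KO library, KO2, lay just above the highest WT library, WT2. The gene was higher in KO by 0.58 on the log2 scale (SE 0.18), with an adjusted p of 0.0483 in edgeR that ran from 0.0188 to 0.764 over the alternatives. This call stood close to the threshold of 0.05 and was lost without KO3 (adjusted p = 0.120), WT1 (0.176), WT2 (0.0548) or WT3 (0.177). In edgeR it was also lost with DESeq2's size factors (0.0532) and with a block on the replicate numbers (0.0914). With coverage or TPM in place of counts the call was lost too (0.0874 and 0.764 in limma).

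*Hnrnpa0* (ENSMUSG00000007836, chromosome 13, minus strand, 58125879 to 58128556) has a single annotated transcript, and its protein is known to bind AU-rich elements. It had 43.1 CPM in KO1, below every WT library, but 64.8 in KO2 and 62.6 in KO3, above every WT library (44.7, 49.2 and 46.0 for WT1 to WT3). The log2 fold change was 0.29 (SE 0.17, adjusted p = 0.249 in edgeR, from 0.0324 to 0.493 over the alternatives). Without KO1 it was 0.44 and passed the threshold in edgeR (adjusted p = 0.0324), in a fit that called 4 of the 7 genes and 4712 of all 15409 tested.

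*Hnrnpd* (ENSMUSG00000000568, chromosome 5, minus strand, 99955935 to 99978938) changed the most of the 7 genes in counts. Its CPM was 38.1, 36.9 and 49.2 for KO1 to KO3 and 18.0, 24.1 and 22.1 for WT1 to WT3. The lowest KO value was far above the highest WT value. *Hnrnpd* was 1.93-fold higher in KO, or by 0.95 on the log2 scale (SE 0.17), with an adjusted p of 0.00971 in edgeR that ran from 5.88e-05 to 0.291 over the alternatives. Leaving out 1 library ended the call only for WT1 (adjusted p = 0.0515 in edgeR).

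*Hnrnpdl* (ENSMUSG00000029328), a close relative of *Hnrnpd* that is linked to a limb girdle muscular dystrophy in people, lies on the same strand of chromosome 5, from 100033577 to 100039664. Its values lay the other way. It had 147, 167 and 196 CPM for KO1 to KO3 against 211, 211 and 232 CPM for WT1 to WT3. The highest KO library was still below the lowest WT library, but the log2 fold change of −0.36 (SE 0.15, unadjusted p = 0.0402) did not pass the threshold in edgeR (adjusted p = 0.111, from 0.0671 to 0.311 over the alternatives).

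*Hnrnpab* (ENSMUSG00000020358, chromosome 11, minus strand, 51600100 to 51606847) encodes an hnRNP that binds single-stranded nucleic acids. Its CPM was 148, 147 and 145 for KO1 to KO3 against 155, 186 and 161 for WT1 to WT3. The KO libraries lay below the WT libraries, but the log2 fold change of −0.19 (SE 0.12, adjusted p = 0.298 in edgeR) was within the spread between replicates.

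The TPM values, which allow levels to be compared between genes, gave a different picture for some of the members. None of the 7 genes passed the threshold in limma on log2(TPM + 1), against 20.5% of the 11691 genes tested. At an unadjusted p under 0.05 there were 2, for which the share of all genes in TPM is not given here. In the counts 3 were called by edgeR and by DESeq2. The median log2 difference of the 7 genes was 0.16, beside −0.02 over all genes. *Hnrnpa1* had 101, 177 and 194 TPM for KO1 to KO3 and 91.5, 89.7 and 83.9 TPM for WT1 to WT3. Its groups did not overlap, and its log2 difference of 0.77 had an adjusted p of 0.0507 in limma. That adjusted p was 0.00223 without KO1, but from 0.104 to 0.156 without any other single library.

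*Hnrnpd* and *Hnrnpa3* differed most between the inputs. *Hnrnpd* had 7.24, 10.1 and 13.2 TPM for KO1 to KO3 and 7.28, 7.95 and 8.12 TPM for WT1 to WT3. KO1 lay just below all WT libraries in TPM although it had more than the highest WT CPM in counts, and the log2 difference was 0.32 (adjusted p = 0.291 in limma), or 0.52 without KO1 (adjusted p = 0.0467) and 0.13 without KO3 (adjusted p = 0.661). *Hnrnpa3* had 27.5, 10.3 and 16.2 TPM for KO1 to KO3 and 11.0, 22.4 and 13.0 TPM for WT1 to WT3. KO1 was the highest and KO2 the lowest library, so that the groups overlapped fully (log2 difference 0.16, adjusted p = 0.764 in limma). Without KO1 or WT1 the difference of *Hnrnpa3* in TPM turned negative, at −0.18 and −0.04.

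*Hnrnpa2b1* itself had 29.5, 38.0 and 59.9 TPM for KO1 to KO3 and 56.6, 57.4 and 58.0 TPM for WT1 to WT3. KO1 and KO2 were again below all WT libraries and KO3 above them. The log2 difference of −0.49 (standard error 0.23) had an adjusted p of 0.171 in limma, and without KO3 it was −0.76 with an adjusted p of 0.0293. Without KO1 it was −0.26 (adjusted p = 0.365 in limma). *Hnrnpdl* had 41.3, 46.3 and 66.2 TPM for KO1 to KO3 and 68.8, 69.9 and 69.4 TPM for WT1 to WT3, again with no overlap. Its log2 difference was −0.46 (adjusted p = 0.113 in limma). Without KO3 the difference was −0.65 (adjusted p = 0.0354 in limma), and without KO1 it was −0.32 (adjusted p = 0.226). KO1 was the lowest and KO3 the highest KO library for both genes, as also in TPM for *Hnrnpa1*, *Hnrnpa0*, *Hnrnpab* and *Hnrnpd*.

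The differences of the last 2 genes were of similar size in both inputs. *Hnrnpa0* had 9.79, 15.4 and 17.8 TPM for KO1 to KO3 and 11.3, 12.8 and 10.8 TPM for WT1 to WT3 (log2 difference 0.25, adjusted p = 0.430 in limma). *Hnrnpab* had 113, 122 and 145 TPM for KO1 to KO3 against 133, 163 and 125 TPM for WT1 to WT3 (log2 difference −0.15, adjusted p = 0.566 in limma). The groups overlapped for both genes in TPM, whereas *Hnrnpab* showed no overlap in counts.

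**Figure D2:**
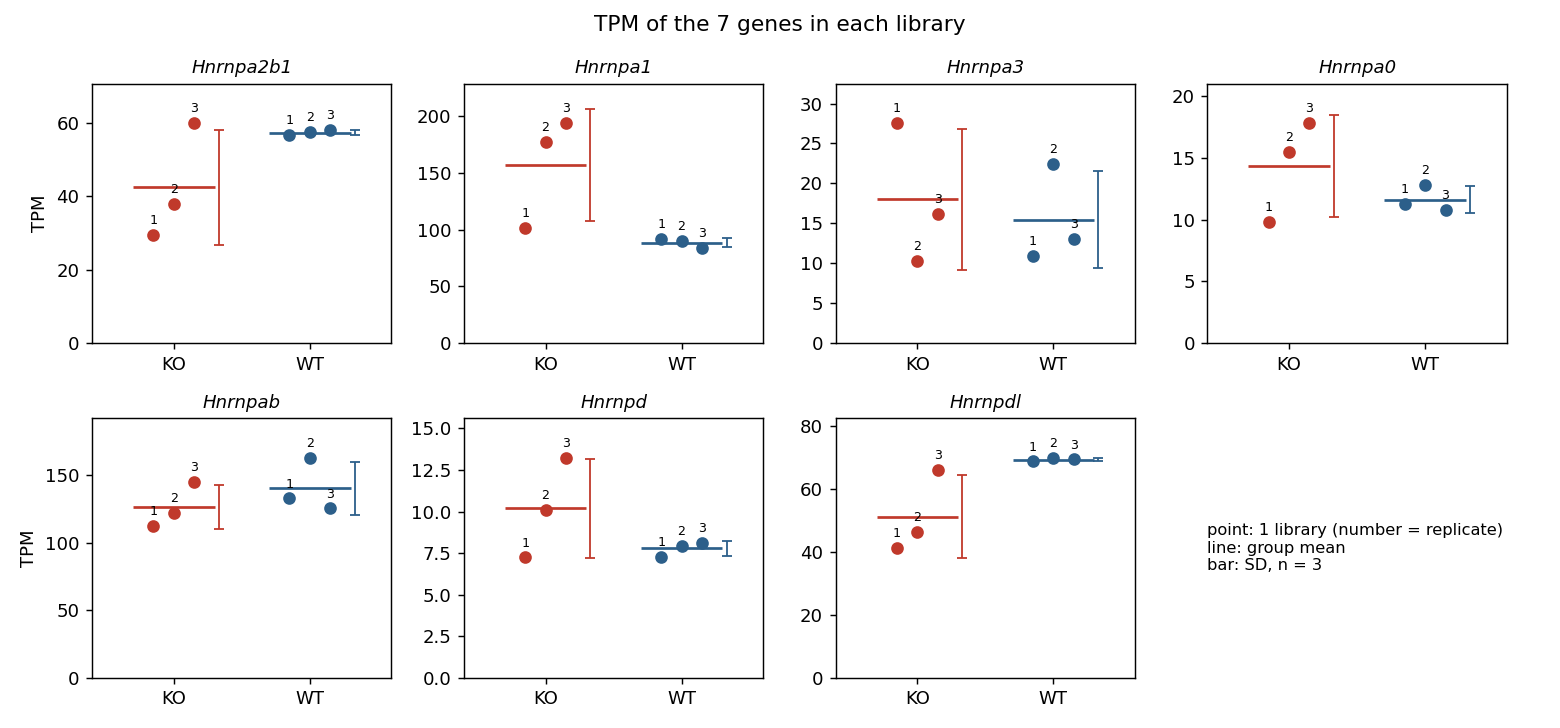
TPM of each gene (vertical axis, from 0, with its own scale in each panel) in the 3 KO and 3 WT libraries. Points are libraries, lines are group means and bars are SD (n = 3). Only *Hnrnpa1* and *Hnrnpdl* show no overlap between KO and WT, and *Hnrnpa3* varies between libraries in both groups. The share of all genes without overlap is not given for TPM.

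In WT the order of TPM levels from high to low was *Hnrnpab*, *Hnrnpa1*, *Hnrnpdl*, *Hnrnpa2b1*, *Hnrnpa3*, *Hnrnpa0* and *Hnrnpd*. Neighbours in this order did not overlap between WT libraries, except *Hnrnpa3* and *Hnrnpa0*. The order depended on the input. In StringTie's mean read coverage per base, *Hnrnpa2b1* (411, 396 and 494 for WT1 to WT3) lay above *Hnrnpdl* (334, 318 and 395). Likewise *Hnrnpa0* (125, 132 and 139) lay above *Hnrnpa3* (65.1, 81.1 and 70.8) in coverage. In KO *Hnrnpa1* had the highest mean level (157 ± 49.4 TPM, SD, n = 3), but it overlapped with *Hnrnpab* (127 ± 16.6 TPM, SD, n = 3). *Hnrnpdl* overlapped with *Hnrnpa2b1* in KO, *Hnrnpa3* with *Hnrnpa0*, and *Hnrnpa0* with *Hnrnpd*. The summed TPM of the 7 genes was 329, 419 and 512 for KO1 to KO3 against 379, 423 and 369 for WT1 to WT3, so that the totals overlapped.

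The make-up of that sum differed between the genotypes. *Hnrnpa2b1* took 8.97%, 9.05% and 11.7% of it for KO1 to KO3 and 14.9%, 13.6% and 15.7% for WT1 to WT3. *Hnrnpa1* took 30.7%, 42.2% and 37.9% for KO1 to KO3 and 24.1%, 21.2% and 22.8% for WT1 to WT3. *Hnrnpdl* took 12.6%, 11.0% and 12.9% for KO1 to KO3 and 18.1%, 16.5% and 18.8% for WT1 to WT3. For each of these 3 genes the KO and WT shares did not overlap, and this also held for their shares of the summed counts. A share depends on all 7 genes, so these values are a description and were not tested.

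**Figure D3:**
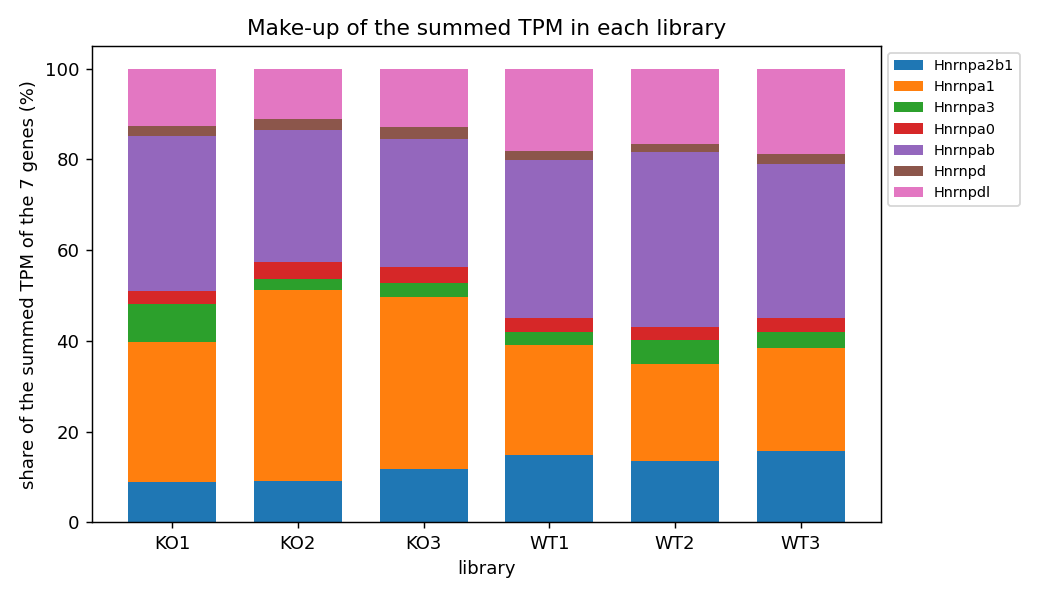
Share of each gene in the summed TPM of the 7 genes (vertical axis, percent) in each library. *Hnrnpa1* takes 30.7% to 42.2% in KO and 21.2% to 24.1% in WT, and *Hnrnpa2b1* 8.97% to 11.7% in KO and 13.6% to 15.7% in WT.

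To see where counts and TPM part, the ratio of CPM to TPM was compared between libraries, after each library had been centred on its median gene. For the 10116 genes that reached a TPM of 1 in every library, the highest centred ratio was at the median 1.06 times the lowest. It was 1.01 times for *Hnrnpa1* and *Hnrnpa0*, 1.05 for *Hnrnpab* and 1.11 for *Hnrnpdl*. For *Hnrnpa2b1* it was 1.22 times, more than in 83.1% of genes. For *Hnrnpd* it was 1.90 times, more than in 97.3% of genes, and for *Hnrnpa3* 2.79 times, more than in 99.0%. The genes with the widest gaps, *Hnrnpa3* and *Hnrnpd*, have 7 and 11 annotated transcripts of 596 to 5150 and 425 to 6811 bases. With narrower gaps, *Hnrnpa2b1* has 13 of 466 to 3645 bases and *Hnrnpdl* 7 of 846 to 2752 bases. Of the genes with gaps below that of the median gene, *Hnrnpa1* has 5 of 1283 to 3118 bases. *Hnrnpab* has 3 of 1437 to 2370 bases and *Hnrnpa0* has 1 of 2678 bases. The part of transcript number and length in the gaps was not tested.

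StringTie also gave a mean read coverage per base for each gene. Coverage followed the counts. The ratio of coverage to counts in the highest library was 1.03 times that in the lowest for *Hnrnpd*, 1.02 times for *Hnrnpa2b1* and at most 1.07 times over the 7 genes. With coverage in place of counts, an input added after the data had been seen, *Hnrnpd* (log2 difference 0.93, adjusted p = 0.0191) and *Hnrnpa1* (0.78, 0.0445) passed the threshold in limma, and *Hnrnpa3* (0.52, 0.0874) did not. The gap between counts and TPM therefore lay between StringTie's coverage and StringTie's TPM. StringTie assigns reads to transcripts, which differ in length, before it computes TPM.

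**Figure D4:**
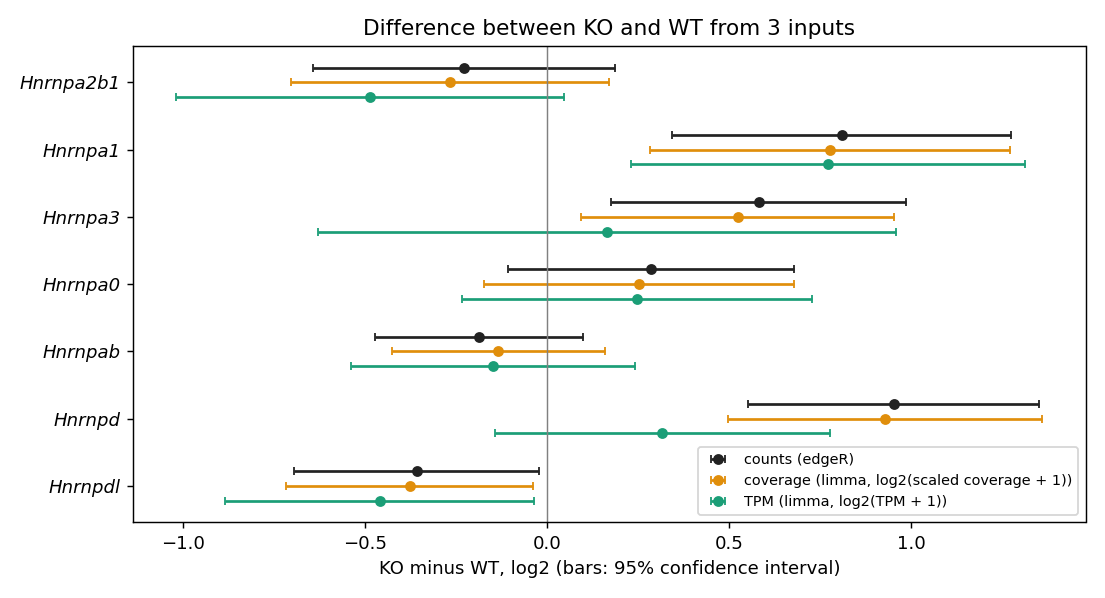
Difference between KO and WT of each gene (horizontal axis, log2) from counts in edgeR, and from StringTie coverage and TPM in limma. Points are estimates and bars are 95% confidence intervals. Coverage lies near the counts for every gene, while TPM lies nearer to 0 for *Hnrnpa3* (0.16) and *Hnrnpd* (0.32) and further below 0 for *Hnrnpa2b1* (−0.49).

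TPM per unit of coverage was therefore compared between KO and WT, with each library centred on its median, as a measure added after the data had been seen. For *Hnrnpa2b1* this ratio was 1.03, 1.02 and 1.07 for KO1 to KO3 against 1.24, 1.21 and 1.23 for WT1 to WT3, where the median gene is at 1. The KO libraries, KO3 included, lay close together and below the WT libraries. The log2 difference was −0.24 (standard error 0.02, unadjusted p = 6.29e-05), which ranked 11 among 11056 genes and missed the threshold in limma (adjusted p = 0.0551, from 0.0386 to 0.232 over the alternatives). With this measure 0.0633% of the genes were called, and none of the 7, of which 3 had an unadjusted p under 0.05. *Hnrnpa1*, just above that level (unadjusted p = 0.0506 in limma), ranked 793 of the 11056 genes by p. With a coverage of at least 20 in place of 5, the adjusted p of *Hnrnpa2b1* was 0.0386 in limma.

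The difference was below 0 for all 7 genes, though close to 0 for *Hnrnpa1* (−0.01) and for *Hnrnpa0*, whose sign turned without KO3 or WT1. The ratio of *Hnrnpd* was 1.84, 2.57 and 2.10 for KO1 to KO3 and 3.59, 2.90 and 3.47 for WT1 to WT3 (log2 difference −0.62, unadjusted p = 0.00685, adjusted p = 0.346 in limma). That of *Hnrnpdl* was 1.78, 1.68 and 1.70 for KO1 to KO3 and 1.86, 1.83 and 1.84 for WT1 to WT3 (log2 difference −0.10, unadjusted p = 0.00729, adjusted p = 0.350 in limma). *Hnrnpd*, *Hnrnpdl* and *Hnrnpa1* did not overlap between KO and WT, and none of them passed the threshold. The share of all genes without overlap is not given here for this measure, and in counts it was 44.3%. *Hnrnpa0*, with a single transcript, kept a ratio of 0.805 to 0.811 in all libraries. *Hnrnpa1*, with 5 transcripts, also kept a narrow range, of 0.861 to 0.876. *Hnrnpa3* ranged from 1.03 in KO3 to 2.79 in KO1 with full overlap. Which transcripts carried the reads cannot be read from values per gene and was not analysed here.

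**Figure D5:**
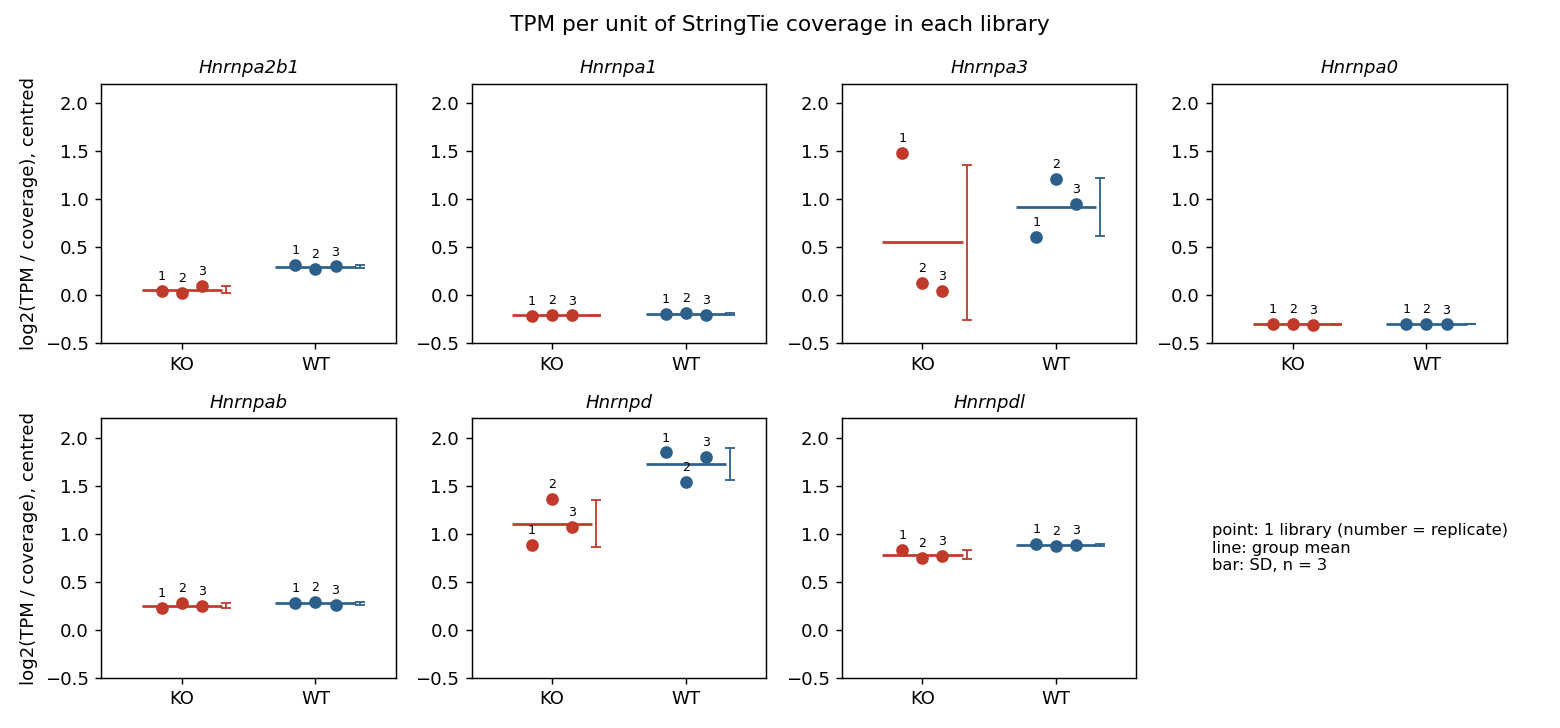
TPM per unit of StringTie coverage of each gene, as log2 and centred on the median gene of each library (vertical axis, the same in all panels). Points are libraries, lines are group means and bars are SD (n = 3). KO and WT libraries stand apart for *Hnrnpa2b1*, by 0.24, and for *Hnrnpd*, by 0.62, while *Hnrnpa3* varies widely within both groups.

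Promoters are shown for *Hnrnpa1*, *Hnrnpa3* and *Hnrnpd*, the 3 genes that rose in the counts. They run from 250 bases before to 50 bases after the start site and are taken from RefSeq on GRCm38.p6, where all 7 members matched. The stretches are chr15:103240147-103240446 on the plus strand, chr2:75659009-75659308 on the plus strand and chr5:99978889-99979188 on the minus strand. Capitals mark CCAAT, the motif bound by the factor NF-Y, and CACGTG, the E-box bound by Myc and USF proteins, each searched on both strands.
Hnrnpa1: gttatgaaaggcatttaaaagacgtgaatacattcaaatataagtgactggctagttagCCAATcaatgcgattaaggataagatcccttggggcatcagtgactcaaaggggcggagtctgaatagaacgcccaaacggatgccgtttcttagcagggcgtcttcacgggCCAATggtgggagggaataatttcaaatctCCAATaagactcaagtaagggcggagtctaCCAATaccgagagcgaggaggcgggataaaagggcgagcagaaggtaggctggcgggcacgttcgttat
Hnrnpa3: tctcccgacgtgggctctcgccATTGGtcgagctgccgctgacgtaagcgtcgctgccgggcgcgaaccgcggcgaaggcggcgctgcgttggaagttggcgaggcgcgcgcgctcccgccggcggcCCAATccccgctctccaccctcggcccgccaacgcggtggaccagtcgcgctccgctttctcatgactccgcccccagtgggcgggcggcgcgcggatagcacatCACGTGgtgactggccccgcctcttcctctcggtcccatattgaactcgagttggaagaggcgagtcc
Hnrnpd: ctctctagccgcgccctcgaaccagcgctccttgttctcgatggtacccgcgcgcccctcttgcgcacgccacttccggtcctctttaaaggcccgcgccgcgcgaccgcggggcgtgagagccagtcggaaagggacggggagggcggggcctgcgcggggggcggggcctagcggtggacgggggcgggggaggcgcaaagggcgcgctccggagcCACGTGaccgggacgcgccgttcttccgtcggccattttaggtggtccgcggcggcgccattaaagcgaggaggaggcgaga
The promoter of *Hnrnpa1* held CCAAT 4 times and that of *Hnrnpa3* 2 times, while that of *Hnrnpd* held none. CACGTG stood 1 time each in *Hnrnpa3* and *Hnrnpd* and in no other member. Of 32851 promoters of this length, 37.4% held CCAAT and 7.15% held CACGTG. The promoters of *Hnrnpa2b1*, *Hnrnpa0* and *Hnrnpab* also held CCAAT, and that of *Hnrnpdl* held neither motif. These matches are a description of the sequences only.

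The neighbours of the members were read from the same fit. *Cbx3*, which encodes a heterochromatin protein and shares the promoter region of *Hnrnpa2b1*, had 39.1, 58.6 and 52.4 CPM for KO1 to KO3 and 70.7, 62.1 and 56.0 CPM for WT1 to WT3. KO1 was the lowest library, as for *Hnrnpa2b1* (log2 fold change −0.33, adjusted p = 0.199 in edgeR). *Cbx5*, which lies beside *Hnrnpa1* and encodes another heterochromatin protein, had a log2 fold change of 0.42 (adjusted p = 0.174 in edgeR). On the other side of these genes, *Nfe2l3* had 0.37 and *Nfe2* 0.73, both at no more than 2.03 CPM and neither called.

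Around *Hnrnpab* the neighbour *Nhp2*, which encodes a protein of small nucleolar ribonucleoproteins, was lower in KO (log2 fold change −0.68, adjusted p = 0.0262 in edgeR), while *Phykpl* had 0.01. Beside *Hnrnpa3* the pseudogene *Rps6-ps4* was lower (−0.72, adjusted p = 0.0400 in edgeR) and *Nfe2l2* had 0.02. The neighbours of *Hnrnpa0*, *Smad5* and *Idnk*, both had 0.19, and around the pair on chromosome 5 *Rasgef1b* had −0.99, *Gm17092* 0.24 and *Enoph1* 0.45, none of them called. No neighbour of the 3 genes that rose was called higher. Both neighbours of *Hnrnpd* had few reads, with at most 1.92 CPM for *Rasgef1b* and 0.518 CPM for *Gm17092*. At such levels, as for *Nfe2* beside *Hnrnpa1*, a call could hardly be made, so a shared change with these neighbours was not tested.

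Over all tested genes within 5 Mb, the median log2 fold change lay between −0.05 and 0.21 around 6 of the members, and was −0.24 around *Hnrnpab*. *Hnrnpab* did not stand apart in this way within 2 Mb, where the median was −0.28 around it and −0.22 around *Hnrnpa3*. Of the 90 genes around *Hnrnpab*, 20 were lower and 7 higher in KO, beside 10.6% lower and 12.1% higher among all tested genes. The windows around the other members held 51 to 110 genes, of which 6 or 7 were lower and 1 to 16 higher. The fold change of *Hnrnpab* itself, −0.19, was thus close to that of its surroundings. *Hnrnpd* and *Hnrnpdl* lie in almost the same window, with medians of 0.11 over 51 genes and 0.21 over 52 genes, and had fold changes of opposite sign. These medians are descriptions of the genome around each gene and were not tested.

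Over the 6 libraries, the genes whose log2 CPM followed *Hnrnpa2b1* closely among 5262 well expressed genes included *Fat1* (Pearson's r = 0.96), *Zfp292* (0.94), *Chd4* (0.93) and *Hnrnpdl* (0.93). *Hnrnpdl* ranked 5 of all these genes, and the rule did not ask for a paralog. The other members were not close, with 0.32 for *Hnrnpab*, 0.21 for *Hnrnpa0*, −0.15 for *Hnrnpa1* and −0.21 for *Hnrnpa3*. *Hnrnpd* was below the expression limit of that ranking, a mean log2 CPM of 5. The lowest values were those of *Kdelr1* (−0.98), *Ahsa1* (−0.97) and *Ghr* (−0.97). All these values share the same 6 libraries and their scaling, and they describe these libraries only.

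Among 9 genes that act on hnRNP A/B proteins or with them, 2 were higher and 1 was lower in KO, and the median was 0.13 on the log2 scale. Of all tested genes 12.1% were higher and 10.6% lower, so these counts say nothing particular of the list. *Tnpo2*, an import receptor that carries hnRNP A/B proteins into the nucleus, had 211, 218 and 213 CPM for KO1 to KO3 against 145, 151 and 124 CPM for WT1 to WT3 (log2 fold change 0.61, adjusted p = 0.0153 in edgeR). *Ptbp1*, which acts with hnRNP A proteins on exon choice in *Pkm*, rose by 0.69 (adjusted p = 0.0432 in edgeR). *Fyn*, a kinase that phosphorylates hnRNP A2, fell by 0.72 on the log2 scale (adjusted p = 0.0245 in edgeR). *Pkm* itself had a log2 fold change of −0.06. The number of called genes in this list was 0 without WT1 or WT3 and 1 without KO2 or KO3.

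Of 14 nonsense-mediated decay factors, edgeR called 0, as DESeq2 did, with a median log2 fold change of 0.06, where edgeR called 22.7% of all tested genes. At an unadjusted p under 0.05, 2 of them were higher and 1 was lower. Of all 14828 tested genes, 5781 had such an unadjusted p in edgeR, in either direction. With library totals alone 1 factor was called, and without KO1 there were 2.

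Of 18 further hnRNP genes, 1 was higher and 1 was lower in KO, and the median was 0.20 on the log2 scale. These 2 of 18 are a smaller share than the 22.7% called among all tested genes, a difference that was not tested. *Hnrnpm*, a splicing regulator, had 122, 155 and 179 CPM for KO1 to KO3 and 61.8, 93.6 and 89.6 CPM for WT1 to WT3 (log2 fold change 0.90, adjusted p = 0.0206 in edgeR). *Hnrnpul2*, a nuclear protein that takes part in the response to DNA breaks, fell by 0.50 on the log2 scale (adjusted p = 0.0390 in edgeR). The number of called genes in this list was 0 without WT1 or WT3, 1 without WT2 and 5 without KO1.

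KO1 stood nearer to WT than KO2 and KO3 for *Hnrnpa1* and *Hnrnpa0*, and also in the mean over proliferation genes and over muscle differentiation genes, though not in each of these genes. The mean log2 CPM of 10 proliferation genes was 4.98, 5.69 and 5.55 for KO1 to KO3 and 4.83, 4.92 and 5.13 for WT1 to WT3. Of these genes 1, *Rrm2*, a subunit of ribonucleotide reductase, was higher in KO (log2 fold change 1.78, adjusted p = 0.00488 in edgeR), none was lower, and the median was 0.37. This 1 of 10 is near the 12.1% of all tested genes that were higher. *Rrm2* went against the mean, with 307, 156 and 212 CPM for KO1 to KO3 against 73.0, 52.9 and 70.9 CPM for WT1 to WT3, so that KO1 was the furthest from WT. DESeq2 called 3 of them, in a fit that called 4149 of all 17329 genes, and edgeR called 5 without KO1, where it called 4712 of 15409. The mean log2 CPM of 11 tested muscle differentiation genes of 12 listed was 10.27, 8.89 and 8.75 for KO1 to KO3 and 10.45, 10.23 and 10.69 for WT1 to WT3. Of these 1, *Mef2c*, a transcription factor of muscle differentiation, was lower (log2 fold change −4.40, adjusted p = 0.0169 in edgeR), none was higher, and the median was −0.83. This 1 of 11 is near the 10.6% of all tested genes that were lower. *Acta1*, named after its values were seen, had 7023 CPM in KO1, above every other library. DESeq2 called 4 of them, and edgeR called 8 without KO1 and 0 without WT3, where it called 1288 of all 15272 genes. For *Hnrnpa3* and *Hnrnpd* the KO library nearest to WT was KO2. The part of proliferation and of differentiation in the values of the members was not tested.

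Markers of the labelled cells were present. The summed TPM of 5 muscle markers was 1278 to 2270 in KO and 2333 to 2563 in WT. *Myh3* and *Actc1* were lower in every KO library, while *Des* and *Myog* overlapped between the genotypes. *Myod1* went the other way, with 56.3, 93.5 and 79.7 TPM for KO1 to KO3 against 36.3, 47.8 and 32.7 TPM for WT1 to WT3. Summed markers of endothelium were at most 0.179 TPM and of leukocytes at most 1.73 TPM. Of the adipocyte markers only *Pparg* was above 0, with *Adipoq* and *Plin1* at 0. Of the neuron markers *Rbfox3* and *Snap25* were at 0, and the summed level, that of *Tubb3*, was 4.22, 4.09 and 11.5 TPM for KO1 to KO3 and 0.728 to 1.07 TPM in WT. Summed fibroblast markers, mostly *Col1a1* and *Dcn*, were 77.9, 8.36 and 64.0 TPM for KO1 to KO3 and 9.88 to 18.3 TPM in WT, and their part in the values of the members was not tested.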

How the data were processed

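C2C12 cells of both genotypes (3 KO and 3 WT libraries) gave total RNA that was depleted of ribosomal RNA and sequenced in pairs of 150-base reads. Per the labels and methods, the authors trimmed reads with Trim Galore, aligned them with STAR and counted them on genes with featureCounts, and they deposited raw read counts. The counter's use of strand, tool versions and the annotation release are not given in the sources used here. They also deposited StringTie values per library: TPM, FPKM and a coverage signal per gene. FPKM was not used. All 6 count columns were used and 0 were left out. The submitters' notes name mm9 and the methods GRCm39, but of 45137 shared identifiers 91.1% had the same start or end as in GENCODE M21, which is on GRCm38, so positions are given on GRCm38.

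The 7 members, the gene lists and the rule for named genes were chosen with earlier results of these data known. The named genes were the members, the nearest tested gene on each side of each, *Cbx3*, list genes past the threshold, and the 5 genes most and 3 least like *Hnrnpa2b1* by Pearson's r of log2 CPM with a mean of at least 5. Counts were filtered with filterByExpr, scaled by TMM and tested with edgeR 4.0.16 (quasi-likelihood, two-sided, genotype only) in R 4.3.3, with Benjamini-Hochberg adjustment over all 14828 genes and a threshold of 0.05. TPM was tested with limma 3.58.1 on log2(TPM + 1) for genes that reached a TPM of 1 in 3 or more libraries, so differences of low genes are understated. TPM per unit of coverage (at least 5 in every library), coverage as input and runs of bases shared between transcripts are additions made after seeing the data. Alternatives used DESeq2 1.42.0, other scalings, no filter, a pseudocount of 0.1, a replicate block and leaving out each library. The steps were tested on simulated data. Library depth ran from 33605258 to 40558740 counts, and replicates differed by more than counting noise (chi-square per degree of freedom 51.8 to 190), so no library repeated another. Splicing and single transcripts were not analysed here. Some items that these rules select are not reported here.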

Additional observations from a re-analysis of the deposited data

How the results depend on the processing

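In counts, the direction of every one of the 7 genes was the same under all 14 alternatives to the edgeR fit. The calls of *Hnrnpa1* and *Hnrnpa3* were lost in 5 and 4 of the 6 fits that left out 1 library. Leaving out 1 library gave log2 fold changes of 0.68 to 0.996 for *Hnrnpa1*, 0.42 to 0.70 for *Hnrnpa3*, 0.19 to 0.44 for *Hnrnpa0*, 0.81 to 1.04 for *Hnrnpd*, −0.41 to −0.09 for *Hnrnpa2b1*, −0.25 to −0.11 for *Hnrnpab* and −0.47 to −0.27 for *Hnrnpdl*, with 0 to 4 of the 7 genes and 933 to 4712 of all genes called. The fewest genes were called without WT1 and the most without KO1. With DESeq2's size factors in edgeR *Hnrnpa3* had 0.57 and missed the threshold. With TPM in limma in place of counts 0 members were called, with 0.77 for *Hnrnpa1*, 0.16 for *Hnrnpa3* and 0.32 for *Hnrnpd*, and with coverage *Hnrnpa3* had 0.52 and missed the threshold. Unfiltered counts gave 4538 calls and DESeq2 gave 4149, beside 3361. Why the calls moved was not tested, except that each fit without a library had fewer samples.

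The labels give both genotypes replicate numbers but name no shared batch. Deviations of same-numbered libraries from their group means had correlations of 0.14, −0.12 and 0.00. Of the KO libraries only KO1 was most like the WT library of its own number. With 3 libraries per group these values cannot settle whether the numbers pair the libraries. With a replicate block, 2520 genes and 2 members were called in counts, with *Hnrnpa3* at 0.57 and no longer past the threshold. In TPM, *Hnrnpa1* kept its 0.77 and 1 member was called with the block, and in TPM per coverage 0 genes were called with it.

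In TPM, leaving out 1 library gave 484 to 3156 genes and 0 to 2 members called. The log2 differences then ran from −0.76 to −0.26 for *Hnrnpa2b1*, 0.59 to 1.06 for *Hnrnpa1*, −0.18 to 0.49 for *Hnrnpa3*, 0.13 to 0.52 for *Hnrnpd* and −0.65 to −0.32 for *Hnrnpdl*. Only *Hnrnpa3* changed sign, at −0.18 without KO1 and −0.04 without WT1. With no filter on TPM 1075 genes were called.

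In TPM per coverage, leaving out 1 library gave 2 to 16 genes called, and *Hnrnpa0* ran from −0.0035 to 0.0010, that is, around 0. With a coverage minimum of 20, 13 genes and 1 member, *Hnrnpa2b1* at −0.24, were called. Library totals alone, in place of TMM, shifted the median of all genes by 0.12, and the medians around the members by amounts close to that. In a window of 2 Mb the median turned from 0.10 to −0.04 around *Hnrnpa2b1* and from −0.01 to 0.04 around *Hnrnpa1*, and moved from −0.05 to −0.22 around *Hnrnpa3* and from 0.11 to 0.24 around *Hnrnpd*. The lowest count of any of the 7 genes was that of *Hnrnpd* in WT1, with 622 reads.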
